A study of Rattus norvegicus with 8 samples.

Results

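Core autophagy machinery is described here through 36 genes, of 32623 genes counted in each library, that build the autophagosome and bring cargo to it. The genes were taken from a fixed list by their symbols, and each symbol occurred once in the gene list of the count tables. By role, 5 belong to the initiation kinase complex, 6 to the lipid kinase complex that starts the membrane, 5 are membrane factors, 10 are enzymes and scaffolds of the ubiquitin-like conjugation, 5 are Atg8-family proteins and 5 are cargo receptors.

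Macroautophagy encloses cytoplasm, protein aggregates or damaged organelles in a double membrane that fuses with the lysosome. The Ulk kinase complex starts the process, the Beclin lipid kinase complex marks the membrane, and the Atg5-Atg12-Atg16l conjugate attaches Atg8-family proteins (the LC3 and GABARAP proteins) to it, which receptors such as Sqstm1 (p62) and Optn (optineurin) bind to bring in ubiquitin-tagged cargo. In injured cord, phagocytes clear large amounts of myelin and cell debris through the lysosome, and oligodendrocytes and neurons use autophagy for the turnover of their own organelles. The level of an mRNA says nothing of the flux through the pathway, which is set largely by phosphorylation and by turnover of the proteins.

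Single cells from the spinal cord of female Wistar rats aged 8 weeks were sequenced by 3' droplet libraries, 2 per group, at 7 days after operation. All groups had a laminectomy at T9. Sham rats had nothing more. In injured rats a 10 g weight was dropped on the exposed cord, and the height of the drop was 12.5 mm for mild, 25 mm for moderate and 50 mm for severe injury. No label ties a library to an animal, so p-values measure the spread between libraries only.

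The deposited tables held between 31482153 (sham replicate 2) and 131045446 (severe replicate 2) unique molecular identifiers (UMIs, single counted RNA molecules) per library, and 55455 of 68658 cells passed quality control. Cells were put into classes by lists of 10 marker genes per type, of which 8 to 10 were measured, and the classes are called "-like" because no cell annotation was used. The largest class was macrophage/microglia-like, with 24599 cells (44.4% of those kept), followed by neutrophil-like (10723), oligodendrocyte-like (3839) and oligodendrocyte precursor-like cells (2084), and 7458 cells went into no class. Only 8 cells scored as neurons, so neuronal autophagy genes could not be measured in this cord tissue. In all, 344 of 55105 barcodes occurred in more than 1 library, at most 25 in any pair. Sham replicate 1 stood apart: 5247 of its cells were neutrophil-like, its median UMI number per kept cell was 2745 against 6152.5 to 10836 elsewhere, and its macrophage/microglia-like cells carried 4235 CPM of neutrophil markers in sum against 160 to 1008 CPM in the other libraries. CPM are UMIs of a gene per 1000000 UMIs of the class in that library.

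The 250 bases before the annotated start of the members were read from RefSeq promoters of the rat assembly GRCr8, and 32 of 36 members had an entry. The counts were made on another assembly, so these coordinates belong to GRCr8 alone. The palindromic E-box CACGTG, which the lysosome regulator Tfeb can bind, and the AP-1 site TGACTCA were searched on both strands, and both were chosen after promoters had been read. Optn is printed because it is a receptor that rose in all 3 injured groups of macrophage/microglia-like cells, Map1lc3b because it is the LC3 gene that rose there, and Atg3 as 1 of the 2 members with the E-box. Capitals mark the motifs, in the orientation in which they were found, and Optn holds neither.
Optn, chr17:78118619-78118868, plus strand: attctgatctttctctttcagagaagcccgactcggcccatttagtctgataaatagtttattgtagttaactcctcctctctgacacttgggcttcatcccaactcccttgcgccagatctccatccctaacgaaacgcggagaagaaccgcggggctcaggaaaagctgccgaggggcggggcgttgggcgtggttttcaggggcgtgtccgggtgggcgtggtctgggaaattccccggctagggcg
Map1lc3b, chr19:66574345-66574594, plus strand: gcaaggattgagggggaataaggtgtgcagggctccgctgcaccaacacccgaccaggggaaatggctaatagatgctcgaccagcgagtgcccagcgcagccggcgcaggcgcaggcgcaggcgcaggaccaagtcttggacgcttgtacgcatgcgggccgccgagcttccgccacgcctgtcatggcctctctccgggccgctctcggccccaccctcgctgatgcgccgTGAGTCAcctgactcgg
Atg3, chr11:69159281-69159530, minus strand: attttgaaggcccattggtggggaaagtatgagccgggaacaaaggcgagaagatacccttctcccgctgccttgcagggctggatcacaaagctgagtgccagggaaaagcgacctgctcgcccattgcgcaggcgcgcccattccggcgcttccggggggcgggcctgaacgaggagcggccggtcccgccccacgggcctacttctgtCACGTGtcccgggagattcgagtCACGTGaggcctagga
The E-box was found before 2 members, Atg3 and Atg5, and before 5.59% of all 33469 promoters. The AP-1 site was found before Map1lc3b alone among the members and before 4.05% of all promoters. A match is a description of these letters and not of a factor on the DNA.

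The first comparison asked how the members differ between injured and sham cord within macrophage/microglia-like cells. This class was gated on markers of microglia and macrophages together, and the origin of its cells was not tested. The receptor Optn, which carries ubiquitin-tagged mitochondria and bacteria to the autophagosome, had 1.66 (only 8 UMIs) and 2.94 CPM in the sham replicates. After injury it had 7.65 and 14.6 CPM (mild), 16.3 and 27.8 CPM (moderate) and 17.6 and 14.4 CPM (severe), so all 6 injured libraries lay above both sham libraries. Its log2 fold change over sham was 2.23 ± 0.48 (SE) in the mild, 3.19 ± 0.49 in the moderate and 3.13 ± 0.49 in the severe group, with adjusted p of 0.0286, 0.0142 and 0.00899 in edgeR's quasi-likelihood test.

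Among the Atg8 family, 4 of 5 members had every injured library above both sham libraries, where 8.84% of all genes did. Map1lc3b, the LC3 gene most used as a marker of autophagosomes, had 46.0 and 77.0 CPM in sham, 153 and 176 in mild, 135 and 129 in moderate, and 147 and 107 in severe replicates. It rose in the mild (log2 fold change 1.49 ± 0.35, adjusted p = 0.0373, edgeR) and severe groups (1.49 ± 0.35, adjusted p = 0.0345) and did not pass in the moderate group (1.14 ± 0.35, adjusted p = 0.0949). Gabarapl1, a GABARAP gene, had 19.5 and 17.1 CPM in sham, 22.4 and 26.0 in mild, 40.6 and 63.4 in moderate, and 63.9 and 36.02 in severe replicates, so the moderate and severe libraries lay above the mild ones and overlapped each other. It rose in the moderate (1.60 ± 0.33, adjusted p = 0.0334, edgeR) and severe groups (1.94 ± 0.33, adjusted p = 0.0120), and its difference between severe and mild was 1.41 ± 0.32 (adjusted p = 0.0590).

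Gabarap itself had 697 and 1052 CPM in sham, 1705 and 1500 in mild, 1284 and 1202 in moderate, and 1543 and 1430 in severe replicates. Its log2 fold change over sham did not pass in the mild (0.95 ± 0.33, adjusted p = 0.0902, edgeR) and moderate groups (0.56 ± 0.32, adjusted p = 0.318). The difference between severe and mild was 0.28 ± 0.32 (adjusted p = 0.670, edgeR). Only the severe group passed against sham (1.23 ± 0.33, adjusted p = 0.0472, edgeR). That call depended on scaling: by library size alone, which moved the median of all genes to -0.60 on the log2 scale, it was not made, and it was lost without any of 7 of the 8 libraries. Map1lc3a, the other LC3 gene, had 256 and 375 CPM in sham, 414 and 454 in mild, 430 and 375 in moderate, and 406 and 447 in severe replicates. It passed in no group, and moderate replicate 2 was above sham replicate 2 by less than 0.05 CPM. Gabarapl2 had 150 and 403 CPM in sham, 182 and 166 in mild, 137 and 123 in moderate, and 220 and 212 in severe replicates. Sham replicate 1 lay within the injured range and replicate 2 above it, and no injured group passed.

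Of the other receptors, Sqstm1, which joins ubiquitin-tagged aggregates to LC3, had 76.1 and 88.8 CPM in sham, 212 and 188 in mild, 172 and 342 in moderate, and 179 and 117 in severe replicates. All 6 injured libraries lay above sham, and it rose in the moderate group (1.71 ± 0.38, adjusted p = 0.0390, edgeR) with 1.37 ± 0.37 in the mild (adjusted p = 0.0514) and 1.32 ± 0.37 in the severe group (adjusted p = 0.0562). Nbr1, a receptor of related build, had 18.2 and 17.6 CPM in sham, 22.8 and 21.0 in mild, 22.5 and 32.8 in moderate, and 18.3 and 12.5 in severe replicates, and passed in none. Tax1bp1, which also restrains NF-kB signalling, had 583 and 232 CPM in sham, 222 and 233 in mild, 219 and 383 in moderate, and 215 and 226 in severe replicates. The sham values differed from each other more than the injured ones did, and the high one came from the replicate rich in neutrophil markers. That replicate was also high in Tax1bp1 among fibroblast-like cells (845 CPM against 171 to 202 in 6 injured libraries) and erythroid-like cells (429 CPM against 47.3 and 42.3), and neutrophil-like cells had 289 to 1812 CPM. The part of these markers in the value was not tested. Calcoco1 gave 9 UMIs in all 24599 cells and was not tested.

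Outside these families, 2 members rose. Tecpr1, which helps autophagosomes fuse with lysosomes, had 1.87 (only 9 UMIs) and 4.64 CPM in sham. It had 15.9 and 18.0 CPM in mild, 19.0 and 28.4 in moderate, and 6.39 and 8.64 in severe replicates. Its rise was 2.30 ± 0.47 in the mild (adjusted p = 0.0241, edgeR) and 2.76 ± 0.47 in the moderate group (adjusted p = 0.0193), and the severe libraries lay between sham and mild (1.54 ± 0.46, adjusted p = 0.0659). Atg4d, a protease that trims and releases Atg8-family proteins, had 8.50 and 9.50 CPM in sham, 23.9 and 19.1 in mild, 15.1 and 16.8 in moderate, and 24.01 and 23.01 in severe replicates. It rose in the mild (1.34 ± 0.26, adjusted p = 0.0220, edgeR) and severe groups (1.85 ± 0.26, adjusted p = 0.00613). In the moderate group it did not pass (0.88 ± 0.26, adjusted p = 0.0844, edgeR).

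**Figure D1:**
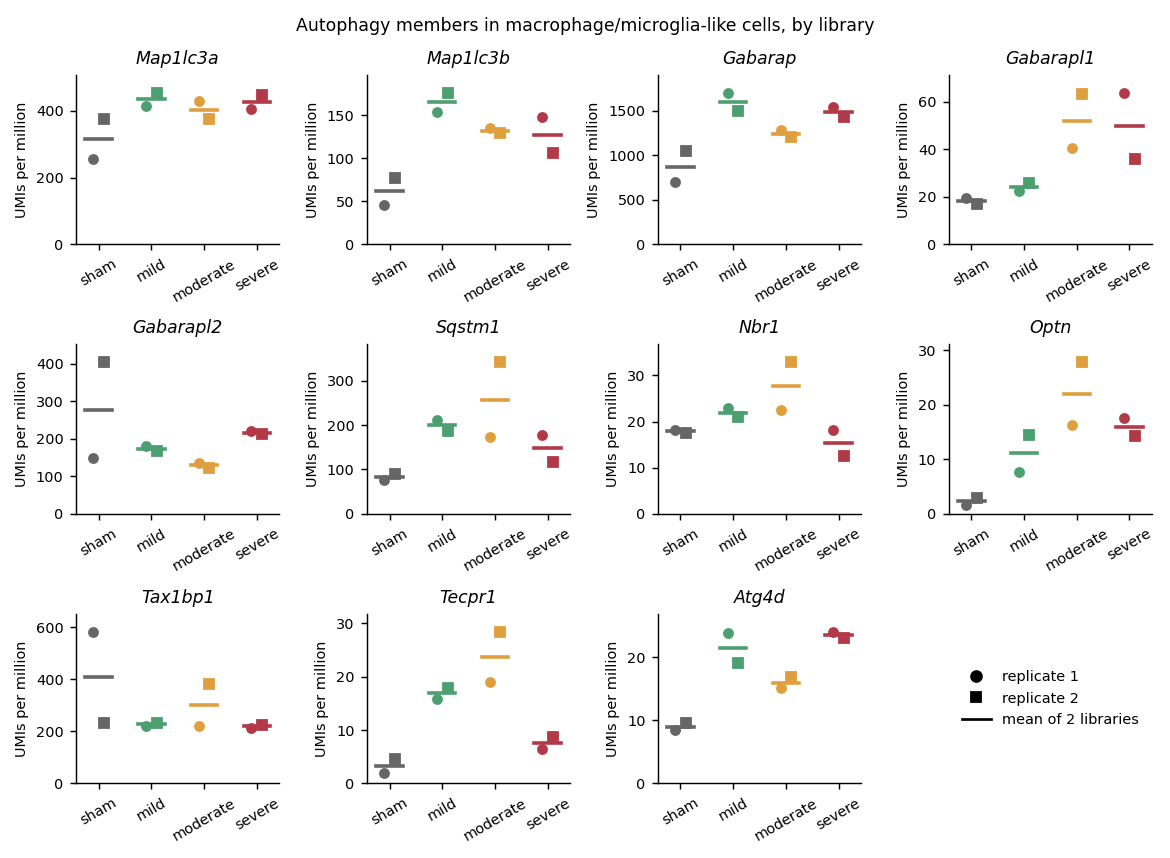
Levels of the 5 Atg8-family genes, 4 receptors, Tecpr1 and Atg4d in macrophage/microglia-like cells, in CPM on linear axes from 0. Circles and squares are replicates 1 and 2 and bars their mean. Optn lies at 1.66 and 2.94 in sham and at 7.65 or more in every injured library, while Gabarapl2 and Tax1bp1 have 1 high sham library each.

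Over the list, 35 members were tested. In the mild group 4 rose and none fell, in the moderate group 4 rose and none fell, and in the severe group 5 rose and none fell. The share called among all genes was 10.7%, 5.45% and 11.3% in either direction, with 5.94%, 3.71% and 6.92% higher and 4.74%, 1.74% and 4.4% lower. The median log2 fold change of the members was 0.43, 0.58 and 0.57, against -0.02, 0.02 and -0.10 over all genes tested. These medians and the fold changes above used TMM factors. By library size alone the medians of the members were 0.33, 0.52 and 0.10, against -0.13, -0.07 and -0.60 over all genes. In the severe group the calls of Atg4d, Map1lc3b, Gabarapl1 and Optn held under TMM, library size and DESeq2 scaling. No member of the initiation complex (5) or the lipid kinase complex (6) passed in any of these 3 comparisons. With so few members, these counts were not tested against the shares of all genes. The nearest was Pik3r4 of the lipid kinase complex in the moderate group (0.90 ± 0.26, adjusted p = 0.0817, edgeR). Between severe and mild, edgeR called 0 of 35 members (2.81% of all genes), 2 members had an unadjusted p under 0.05, and DESeq2 called 2. By the libraries alone, 13 members had all 6 injured values above both sham values and none had all below, against 8.84% and 17.2% of all genes. The 13 were Wipi1, Wipi2, Tecpr1, Atg4d, Atg5, Atg7, Atg16l2, Map1lc3a, Map1lc3b, Gabarap, Gabarapl1, Sqstm1 and Optn. These calls rest on few libraries. With only the groups compared in the fit, 0, 0 and 3 members were called in the mild, moderate and severe groups. Leaving out 1 library at a time gave 0 to 9, 0 to 9 and 2 to 13 calls, where 0 came without either mild replicate for the mild group and without moderate replicate 2 for the moderate group, and the highest counts came without sham replicate 2. For the severe group, 2 were called without severe replicate 1 and 3 without severe replicate 2 or either mild replicate, and for the moderate group 2 without either mild replicate.

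The make-up of this class by marker score moved with injury. Of its cells, 86.7% and 95.8% were microglia-scoring in the sham replicates, by 10 microglia against 8 measured blood-derived macrophage markers, and 21.9% to 52.5% in the injured libraries. Blood-derived-scoring cells were 7.01% and 2.01% in sham and 38.1% to 65.4% after injury. The cut-offs of this score were set after its distribution had been seen. Microglia-scoring cells themselves carried 1014 and 2025 CPM of microglia markers and 2981 and 2053 CPM of blood-derived markers in sham. After injury they carried 723 to 1001 CPM and 3187 to 4962 CPM. Whether the cells across this cut differ in origin or in state was not tested. In sums over a class, more cells of a kind and more RNA per cell cannot be told apart, and the sums of each subset were also tested on their own. In microglia-scoring cells the summed neutrophil markers were 3767 and 147 CPM in sham and 113 to 328 CPM after injury.

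Within microglia-scoring cells, edgeR called no member in any injured group against sham, with 1.52%, 0.05% and 1.24% of all genes called in the mild, moderate and severe groups and 5, 7 and 5 members at an unadjusted p under 0.05. Optn had 1.92 and 1.58 CPM in the microglia-scoring cells of sham and 1.52, 2.76, 2.65, 9.63, 5.02 and 1.68 CPM in the 6 injured libraries, so the groups overlapped. Map1lc3b had 43.3 and 75.3 CPM in sham and 79.8 to 145 in injured libraries and did not overlap. Atg4d likewise had 7.45 and 9.21 CPM in sham and 10.5 to 19.4 after injury. In all, 6 members (Atg101, Atg4d, Atg16l1, Atg16l2, Map1lc3b and Gabarap) had all injured libraries above sham in microglia-scoring cells, against 5.89% of all genes, and none had all below, against 10.1%.

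Blood-derived-scoring cells were scarce in sham, with 41 and 42 cells. Optn gave 0 of 448486 UMIs in those of sham replicate 1, which allows up to 6.69 CPM by counting error alone, and 26 of 468212 UMIs (55.5 CPM) in those of replicate 2. The injured libraries had 13.6 to 36.8 CPM, between the sham values. A change could not be judged against sham libraries that differed this much from each other. EdgeR called 0, 0 and 1 members in mild, moderate and severe against sham, with 1.94%, 0.351% and 1.52% of all genes called and 7, 8 and 8 members at an unadjusted p under 0.05. The 1 called was Gabarapl1 (log2 fold change 1.98 ± 0.37, adjusted p = 0.0324). It had 9 UMIs in these cells of either sham library. Neutrophil markers in these cells were at 6134 and 481 CPM in sham and 937 to 1697 CPM after injury. Macrophage/microglia markers were at 32291 and 8490 CPM in sham and 5324 to 7746 CPM after injury. The part of these differences in the call was not tested. In these cells 6 members had all injured libraries above sham, against 14.2% of all genes, and none had all below, against 11.3%. Between severe and mild, edgeR called Gabarapl1 (1.20 ± 0.27, adjusted p = 0.0355) and Ulk1 (1.45 ± 0.35, adjusted p = 0.0444), with 4.82% of all genes called. Gabarapl1 had 27.2 and 33.6 CPM in the mild and 68.8 and 45.1 CPM in the severe replicates of these cells, and Ulk1, the initiating kinase, 2.71 and 4.37 against 10.4 and 5.83.

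The subsets themselves were compared within the 6 injured libraries with the library as a block. Of 35 members, 25 were lower in microglia-scoring than in blood-derived-scoring cells and none was higher, where 60.2% of all genes were called, 29.9% lower and 30.3% higher. The median log2 fold change was -0.40 for the members and 0.02 for all genes. By library size alone, which moved the median of all genes to 0.29, 13 members were lower and 7 higher. The members lower under TMM, library size and DESeq2 scaling were Optn, Sqstm1, Nbr1, Map1lc3a, Map1lc3b, Gabarap, Gabarapl1, Atg4d, Atg3, Atg10, Atg16l2, Tecpr1 and Wipi1, and no member was higher under all 3.

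Optn differed most. In the microglia-scoring and blood-derived-scoring cells of the same library it had 1.52 and 13.6 CPM in mild replicate 1, 2.76 and 30.4 in mild replicate 2, 2.65 and 28.5 in moderate replicate 1, 9.63 and 36.8 in moderate replicate 2, 5.02 and 22.5 in severe replicate 1, and 1.68 and 24.3 in severe replicate 2. It was lower in the microglia-scoring cells of 6 of 6 libraries, and the 2 sets of values did not overlap (log2 fold change -3.34 ± 0.24, adjusted p = 1.49e-06, edgeR). The remaining called falls were smaller: Tecpr1 by -1.20 ± 0.17, Gabarapl1 by -1.10 ± 0.06, Atg4d by -1.09 ± 0.08 and Wipi1, which reads the lipid mark of the nascent membrane, by -0.84 ± 0.13. Tecpr1, Gabarapl1 and Atg4d were lower in 6 of 6 libraries and Wipi1 in 5 of 6.

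By role and with TMM factors, 4 of 4 tested receptors, 4 of 5 Atg8-family members, 4 of 5 membrane factors and 8 of 10 conjugation members were lower in the microglia-scoring cells, with 2 of 5 initiation and 3 of 6 lipid kinase members, where 29.9% of all genes were lower. Not all of these were lower by plain CPM in every library. The receptor Tax1bp1 was lower in 2 of 6 libraries (medians of 225 and 221 CPM in microglia-scoring and blood-derived-scoring cells). The membrane factors Wipi2 and Atg9a were lower in 3 of 6, as were Ulk1 and Atg12. Atg5 and Uvrag were lower in 4 of 6, and Ulk2, Becn1, Pik3c3, Wipi1, Atg4c, Atg7 and Sqstm1 in 5 of 6. No initiation or lipid kinase member was among those lower under all 3 scalings. Gabarapl2 was the Atg8-family exception. Its fitted difference was 0.00 ± 0.06 with TMM factors, and by plain CPM it was higher in the microglia-scoring cells of 6 of 6 libraries, at a median of 190 against 159 CPM. Rb1cc1 (FIP200, the scaffold of the Ulk complex) and Vmp1, an endoplasmic reticulum protein, were also not called with TMM factors and higher by plain CPM in 6 of 6 libraries, as were Atg101 and Atg14. In all, 5 members were higher by plain CPM in 6 of 6 libraries, against 42.9% of all genes, and 11 were lower, against 15.3%.

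**Figure D2:**
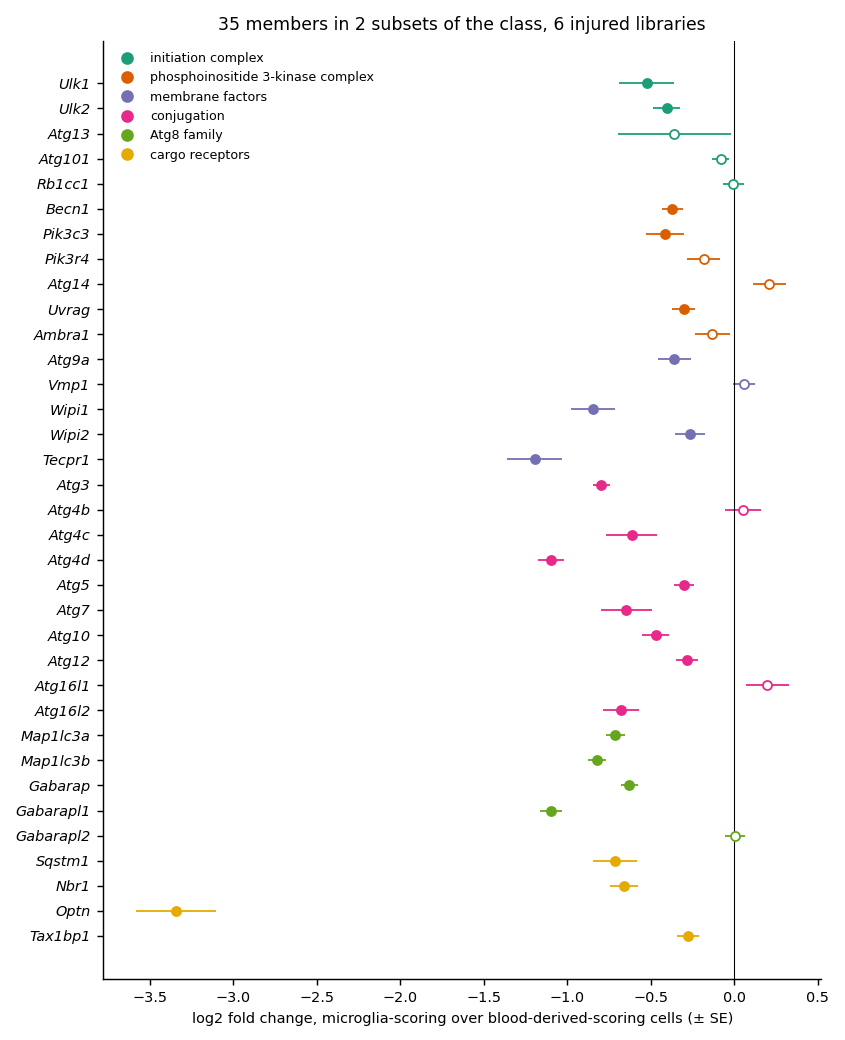
Log2 fold change of 35 members in microglia-scoring over blood-derived-scoring cells of the 6 injured libraries, with SE, coloured by role. Filled points have an adjusted p under 0.05. Of these, 25 lie below 0 and none above, and Optn lies farthest at -3.34.

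**Figure D3:**
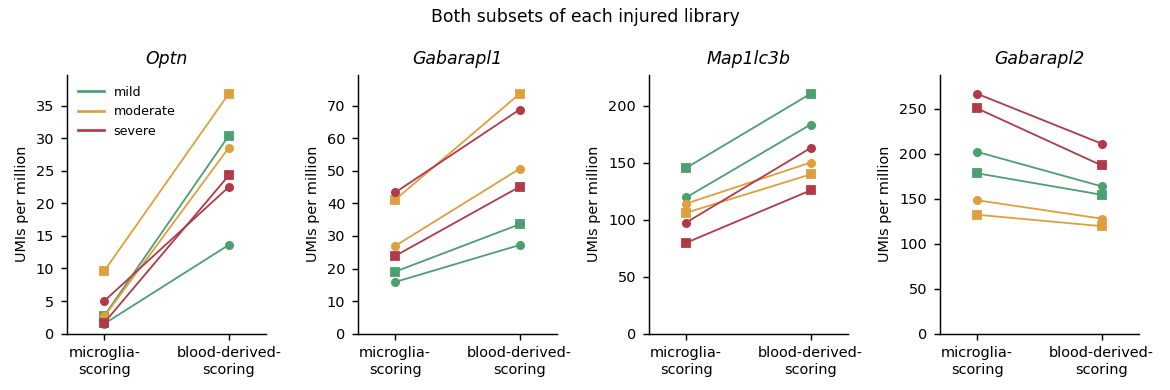
CPM of 4 members in the microglia-scoring and blood-derived-scoring cells of each injured library, joined by lines, on linear axes from 0. Optn, Gabarapl1 and Map1lc3b are lower in the microglia-scoring cells of all 6 libraries and Gabarapl2 is higher in all 6.

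Other genes around the pathway were counted in 4 lists of 68 genes, of which 64 were measured, in the same 3 contrasts with sham by edgeR. Of all genes, 5.94%, 3.71% and 6.92% were higher and 4.74%, 1.74% and 4.4% lower there, and the counts of 0 to 3 genes per list were not tested against these shares. Nutrient and energy signalling had 2, 2 and 1 of 23 tested genes higher in mild, moderate and severe macrophage/microglia-like cells and none lower. Its leading genes were Tfeb, the regulator of lysosomal genes, in mild (1.73, adjusted p = 0.0151) and severe (1.24, adjusted p = 0.0312), and the transcription factor Foxo1 in moderate (1.64, adjusted p = 0.0438). Fusion with the lysosome had 1, 2 and 1 of 15 higher and none lower, led by the tethering subunit Vps33a in mild (2.05, adjusted p = 0.00961) and severe (1.58, adjusted p = 0.0136) and by the adaptor Plekhm1 in moderate (1.79, adjusted p = 0.0278).

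Further core genes had 1, 1 and 3 of 15 higher and 1, 0 and 0 lower. Tex264, a receptor for the endoplasmic reticulum, led in mild (1.41, adjusted p = 0.0191, edgeR) and severe (1.69, adjusted p = 0.00797), Tollip in moderate (1.34, adjusted p = 0.0367), and Wdr45b, a relative of the Wipi genes, fell in mild (-1.56, adjusted p = 0.0120). Mitophagy genes had 1, 0 and 2 of 9 higher and 1, 0 and 0 lower. Bnip3, a receptor on mitochondria that hypoxia induces, rose in severe (2.31, adjusted p = 0.0257). In mild, Fkbp8 rose (1.03, adjusted p = 0.0368) and Tomm7 of the mitochondrial import pore fell (-1.42, adjusted p = 0.0358). Within microglia-scoring cells alone, edgeR called Vps33a higher (1.56, adjusted p = 0.0442) and Wdr45b lower (-1.78, adjusted p = 0.0405) in mild. No other gene of these lists was called there against sham, and none in blood-derived-scoring cells. Few genes of any kind were called within the subsets, as given above. The part of the make-up of the class in the rises of these lists was not tested.

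Between the subsets, 11 of 23 signalling genes, 7 of 15 fusion genes, 7 of 15 further core genes and 3 of 9 mitophagy genes were lower in microglia-scoring cells, and 2, 0, 1 and 1 were higher, against 29.9% of all genes lower and 30.3% higher. These lists were counted with TMM factors only. Bnip3 had the largest difference of these lists (-2.66, adjusted p = 5.18e-07, edgeR), and Tfeb was at -1.33 (adjusted p = 2.56e-05).

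Oligodendrocyte-like cells, the myelin-forming cells, were compared as the mean of the injured groups against sham. Of 35 members 1 fell and none rose, with 6.14% of all genes called and 3.1% called lower. Vmp1 had 330 and 332 CPM in the sham replicates and 187, 223, 157, 141, 266 and 246 CPM in the injured ones, which lay all below sham (log2 fold change -0.76 ± 0.17, adjusted p = 0.0355, edgeR). It stayed called without severe replicate 1 and was lost without any of the other 7 libraries, at changes of -0.79 to -0.68. Sham replicate 2 held 36 of these cells, and sham replicate 1 carried 3339 CPM of neutrophil markers in them against 2.34 to 222 CPM in the other libraries and 212 CPM of fibroblast markers against 4.67 to 174 CPM, whose part in the result was not tested. Map1lc3b had 175 and 150 CPM in sham and 182 to 296 after injury, without overlap, at a change of 0.52 ± 0.18 (adjusted p = 0.108). By the libraries alone 3 members had all injured values above sham and 3 all below, against 7.51% and 6.62% of all genes. In oligodendrocyte precursor-like cells edgeR called 0 of 34 members (6.75% of all genes), 2 had an unadjusted p under 0.05, and DESeq2 called 0. In these cells none had all injured libraries above sham and 1, Nbr1, all below, against 11.1% and 12.2% of all genes. Sham replicate 1 held 50 precursor-like cells, which carried 6803 CPM of fibroblast markers against 25.7 to 984 CPM in the other libraries. Their neutrophil markers were at 2995 CPM against 85.7 to 418 CPM. The part of these markers in the precursor-like results was not tested. In simulated counts for the severe and sham macrophage/microglia-like libraries, 6.12% of 2-fold and 53% of 4-fold changes were recovered by edgeR. These counts were drawn with the same preset spread for every gene. The contrasts with sham in oligodendrocyte-like and precursor-like cells were not simulated, so these shares do not apply to them.

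Cell classes were compared with the library as a block. Against macrophage/microglia-like cells, 13 members were higher and 9 lower in oligodendrocyte-like cells (68.3% of all genes called), 3 and 18 in oligodendrocyte precursor-like cells (64.5%), 15 and 4 in neutrophil-like cells (61.4%), 5 and 9 in T/NK cell-like cells (46.5%), and 2 and 10 in fibroblast-like cells (58.1%). Of all genes, 31.6%, 29.6%, 29.9%, 19.1% and 28% were higher and 36.7%, 34.9%, 31.5%, 27.3% and 30.1% lower in the same order. The split of directions moved with scaling. By library size alone it was 19 higher and 4 lower, 16 and 5, 15 and 5, 11 and 8, and 7 and 7 in the same order, and by DESeq2 19 and 5, 9 and 8, 25 and 2, 16 and 6, and 8 and 7. All members named next kept their direction and call under the 3 scalings unless it is said otherwise.

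In oligodendrocyte-like cells Wipi1 differed most. It had 59.5 to 102 CPM in the 8 libraries against 2.90 to 10.3 CPM in macrophage/microglia-like cells, so the ranges did not meet (log2 fold change 3.01 ± 0.18, adjusted p = 2.52e-21, edgeR). Fibroblast-like cells had 31.1 to 68.6 CPM (2.52 ± 0.18), and precursors 15.8 to 31.5 CPM (0.81 ± 0.18). T/NK cell-like cells had 0 to 10.2 CPM (-2.63 ± 0.47), with 0 UMIs in 4 of 7 libraries. Oligodendrocyte-like cells also had more Gabarapl1, at 132 to 195 against 17.1 to 63.9 CPM (1.80 ± 0.21), more Gabarapl2, at 342 to 841 against 123 to 403 CPM (1.20 ± 0.14), and more of the kinase Ulk2 (1.09 ± 0.19) and of Atg14, the subunit that directs the lipid kinase to autophagy (1.03 ± 0.23). They had less Gabarap (-1.17 ± 0.13), Tecpr1 (-1.71 ± 0.29), Map1lc3a (-0.86 ± 0.18) and Atg7, the activating enzyme of the conjugation (-1.23 ± 0.21). Atg5 was lower too (-0.76 ± 0.14), but not under the other scalings.

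Among the GABARAP genes, Gabarap was at 516 to 974 CPM in oligodendrocyte-like and 697 to 1705 CPM in macrophage/microglia-like cells, while Gabarapl1 and Gabarapl2 were higher in the oligodendrocyte-like cells. Cells with at least 1000 UMIs were thinned to 1000 UMIs each, and cells with fewer were left out. Of the thinned cells, 51.5% of oligodendrocyte-like and 69.5% of macrophage/microglia-like cells had a Gabarap UMI (means over 8 libraries). For Gabarapl2 these shares were 45.4% and 18.0%, and for Gabarapl1 15.2% and 3.61%. Without thinning, over all cells of each class, the shares were 95.3% and 95.8%, 94.5% and 77.6%, and 76.9% and 30.7%. Among erythroid-like cells, 9.01% had a Gabarap UMI after thinning and 0.865% a Gabarapl1 UMI.

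Neutrophil-like cells had more Atg16l2, a variant scaffold of the conjugation, at 5.05 to 26.6 CPM in 7 libraries against 1.24 to 4.75 CPM in macrophage/microglia-like cells (2.28 ± 0.29, adjusted p = 2.16e-09, edgeR). They also had more Tax1bp1 (2.01 ± 0.28), Ulk1 (1.81 ± 0.30), Atg4d (1.62 ± 0.20) and Rb1cc1 (1.34 ± 0.21). Lower were Atg4c, another Atg4 protease (-2.04 ± 0.34), and Atg10, the enzyme that carries Atg12 (-1.13 ± 0.22). Tecpr1 (-0.91 ± 0.33) and Pik3r4, the regulatory subunit of the lipid kinase (-0.79 ± 0.23), were lower with TMM factors and library sizes and not with DESeq2. The median UMI number of a neutrophil-like cell was 1521 against 11213 for a macrophage/microglia-like cell.

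Atg4c was lower in 4 of these 5 classes, oligodendrocyte-like cells being the exception (-0.25 ± 0.22, adjusted p = 0.323). It had 4.47 to 10.6 CPM in macrophage/microglia-like cells and 0.499 to 2.49 in fibroblast-like cells (-2.99 ± 0.29), and in T/NK cell-like cells it had 0 UMIs in 5 of 7 libraries (-4.15 ± 0.61). T/NK cell-like cells further had less Map1lc3a, at 34.3 to 137 against 256 to 454 CPM (-2.31 ± 0.21), less Gabarap (-1.85 ± 0.14) and less Vmp1 (-1.44 ± 0.26), and more Ulk1 (1.07 ± 0.37), Gabarapl1 (0.96 ± 0.23), Atg14 (0.91 ± 0.32), Atg12, the ubiquitin-like partner of Atg5 (0.89 ± 0.19), and its scaffold Atg16l1 (0.78 ± 0.28). Fibroblast-like cells had less Tecpr1 (-2.60 ± 0.32), Atg7 (-1.74 ± 0.22), Atg10 (-1.31 ± 0.19) and Gabarap (-1.29 ± 0.14), and more Atg9a, the lipid scramblase of the seed vesicles (0.53 ± 0.18).

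In precursor-like cells Atg10 (-2.42 ± 0.21), Gabarap (-2.26 ± 0.14), Tecpr1 (-2.12 ± 0.31), Atg4c (-2.10 ± 0.26) and Atg3, the enzyme that hands Atg8 proteins to lipid (-1.27 ± 0.15), were lower, and Nbr1 (0.44 ± 0.17) and Atg12 (0.38 ± 0.15) higher. Of the 2084 precursor-like cells, 749 lay within 0.2 of the margin of the gate, and 1021 cells lay just outside it. The class carried 1257 to 2503 CPM of oligodendrocyte markers and 421 to 1094 CPM of astrocyte markers, beside 2974 to 9738 CPM of its own. The part of such cells in these differences was not tested. Gabarap was lower than in macrophage/microglia-like cells in 4 of the 5 classes and higher in neutrophil-like cells (0.53 ± 0.14). Of the 15 genes for fusion with the lysosome, 12 were lower in precursor-like (Vamp8 by -3.91), 11 in T/NK cell-like (Lamp2 by -2.96), 13 in fibroblast-like (Plekhm1 by -1.74) and 5 in oligodendrocyte-like cells (Vps33a by -1.31) with none higher, and in neutrophil-like cells 3 were higher (Epg5 by 0.71) and 4 lower (Vps41 by -1.80). In the same order 34.9%, 27.3%, 30.1%, 36.7% and 31.5% of all genes were lower, and this list too was counted with TMM factors only.

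**Figure D4:**
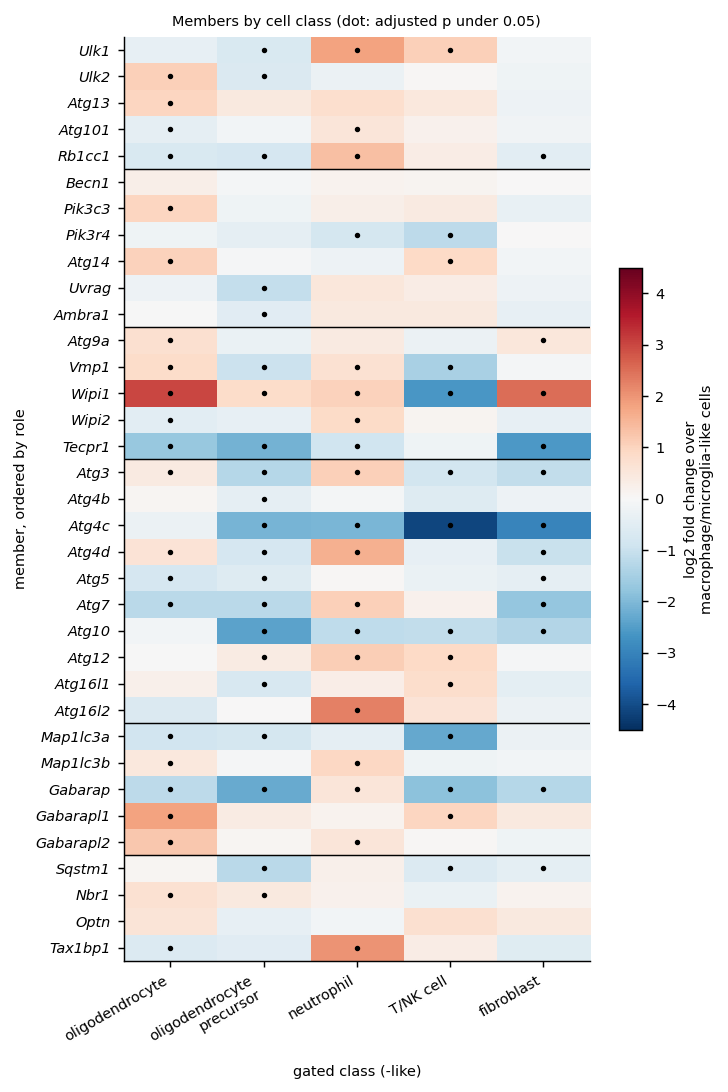
Log2 fold change of 35 members in 5 classes over macrophage/microglia-like cells, with red for higher and blue for lower levels and lines between the roles. Dots mark an adjusted p under 0.05. Wipi1 is higher in oligodendrocyte-like and fibroblast-like cells and Atg4c lower in 4 classes.

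Erythroid-like cells were found in 3 libraries with at least 20 cells and were not part of a test. They held 104.9, 102 and 147 CPM of Gabarap in sham replicate 1 and severe replicates 1 and 2, below the 697 to 1705 CPM of macrophage/microglia-like cells. Gabarapl2 had 356, 521 and 485 CPM there, where macrophage/microglia-like cells had 123 to 403 CPM. Tax1bp1 had 429, 47.3 and 42.3 CPM, and the next highest member by its mean, Map1lc3a, had 28.9, 17.4 and 34.998 CPM.

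**Figure D5:**
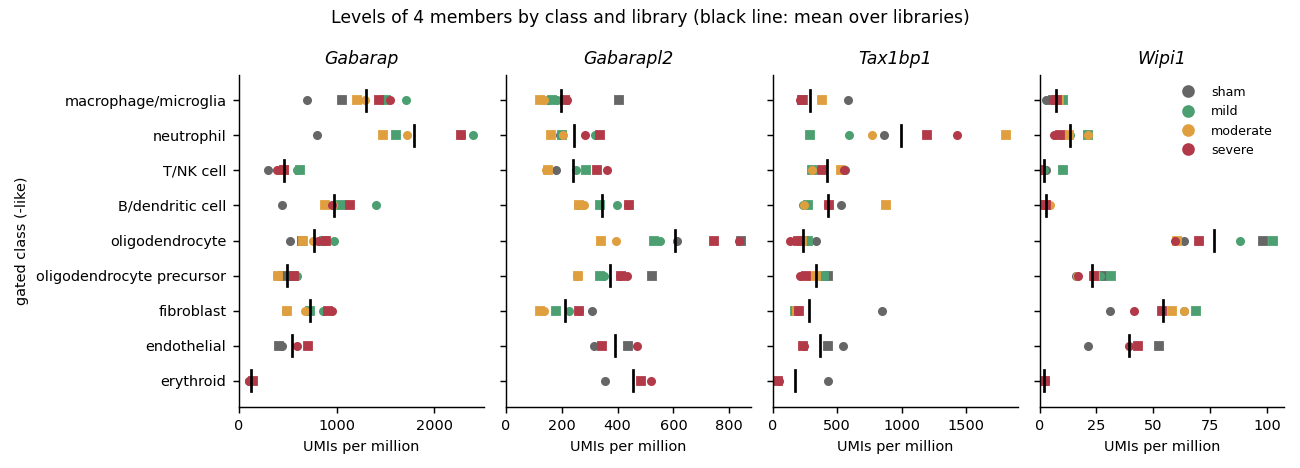
CPM of Gabarap, Gabarapl2, Tax1bp1 and Wipi1 by class, 1 point per library with at least 20 cells, coloured by group, with a black line at the mean. Erythroid-like cells lie at 102 to 147 CPM for Gabarap and at 356 to 521 CPM for Gabarapl2.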

How the data were processed

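For each of 8 libraries the authors deposited raw UMI counts per gene and cell from Cell Ranger. The file headers name version 5.0.1 and the paper's methods 6.0.1, on the rat assembly Rnor_6.0 per the labels, and the values are counts without normalization. Cells over 10% mitochondrial UMIs, the 7.7% with the highest Scrublet scores (scanpy 1.11.5) and those outside the mean ± 2 SD of UMIs or genes per library were removed.

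Marker scores were means of ln(1 + UMIs per 10000). A cell joined the type with the highest score if at least 3 markers were detected and the margin over the next type was 0.3 or more (0.5 as an alternative). Within the macrophage/microglia-like class, the microglia score minus the blood-derived macrophage score had to be -0.75 or above for microglia-scoring and -1 or below for blood-derived-scoring cells. Members, lists and markers were chosen with earlier results of these data known, and the last 2 limits after the score had been seen.

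Counts were summed per class and library (at least 20 cells), filtered by filterByExpr and tested with the quasi-likelihood test of edgeR 4.0.16 (R 4.3.3), TMM normalization and Benjamini-Hochberg adjustment over all genes at 0.05. Contrasts with sham used 1 fit of all 4 groups. The SE of an edgeR result is its absolute log2 fold change divided by the square root of the test's F statistic. The fit of the groups (severe against sham macrophage/microglia-like cells) and the fit of the classes (oligodendrocyte-like against macrophage/microglia-like cells) were checked on simulated counts, with 98 genes changed 2-fold and 100 changed 4-fold tested in the first and 91 and 93 in the second. The simulated spread was preset alike for every gene and not estimated from the libraries. Alternatives were DESeq2 1.42.0, library-size scaling, no filter, no doublet removal, a 20% mitochondrial limit, a stricter gate, at least 100 cells, the replicate block, only the groups compared, each subset alone and each library left out. Values of every library are given for the Atg8-family and receptor members and any other member called in macrophage/microglia-like cells. In comparisons of classes the 5 largest called rises and falls are named. Shares of cells after thinning to 1000 UMIs used only cells with at least 1000 UMIs. Shares without thinning used all cells of a class. No label says that the replicate numbers pair the libraries, and the main fits did not pair them. Other software was Python 3.11.15, numpy 2.4.6, pandas 2.3.3 and scipy 1.17.1.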

Additional observations from a re-analysis of the deposited data

How the results depend on the processing

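Counts of members called are given in the order mild, moderate and severe against sham in macrophage/microglia-like cells unless another order is named. DESeq2 called 10 in the severe group, no filter on low counts gave 7 in mild and 9 in severe, only the groups compared gave 0, 0 and 3, microglia-scoring cells alone 0, 0 and 0, and blood-derived-scoring cells alone, an alternative chosen after seeing the data, 0, 0 and 1. The replicate block gave 2 in the moderate group. Leaving out 1 library gave 0 to 9, 0 to 9 and 2 to 13. Severe against mild, with 0 in the report, gave 2 by DESeq2, 2 with no filter, 1 with only the groups compared, 2 in blood-derived-scoring cells and 0 to 2 without 1 library (2 without either sham replicate). In oligodendrocyte-like cells (1 in the report) no filter gave 2, a mitochondrial limit of 20% 0 and the replicate block 0. At least 100 cells dropped sham replicate 2 (36 cells) and severe replicate 1 (70 cells). Sham replicate 1, rich in neutrophil markers, was then the only sham library, so no count is given for that setting. In precursor-like cells (0 in the report) no filter gave 1 and leaving out 1 library 0 to 3 (3 without sham replicate 2). T/NK cell-like cells gave 22 in place of 14 by DESeq2. In 150 further cases the count stayed within 1.5 times of the reported one, and the causes were not tested.

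Alternatives for named members were the same in 2351 cases, weaker in 138, as where a call was lost, and stronger in 102. Directions turned 3 times among named members that had been called. These were Optn in mild blood-derived-scoring cells (-0.25), and Atg4d (0.09) and Map1lc3a (0.0837) in precursor-like cells by library size alone. The precursor-like comparison at 100 cells was not run, since too few sham cells remained. Same-numbered libraries had correlated deviations of -0.20 to 0.18. No label says that the numbers pair libraries, and these correlations cannot exclude a shared batch. With 2 libraries per group, edgeR recovered 6.12% of 2-fold and 53% of 4-fold changes in the simulated severe against sham counts. Their spread was preset alike for every gene and not estimated from these libraries. The reach of the tests in the real counts was not measured, and smaller changes may have been missed. Calls under 4-fold were made, such as Map1lc3b in mild (log2 fold change 1.49). Of 45 level ratios between classes, 40 moved by less than the spread between libraries when taken as thinned shares, and the 5 that moved more were all of Gabarap.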

Other observations

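In oligodendrocyte-like cells Gabarapl2 had 612 and 841 CPM in sham, 552 and 532 in mild, 394 and 342 in moderate, and 836 and 744 in severe replicates. In precursor-like cells it had 408 and 524, 353 and 337, 254 and 260, and 435 and 414 CPM in the same order. The moderate replicates were the lowest in both classes and in macrophage/microglia-like cells (137 and 123 CPM). The libraries are the same in each class, so the classes are not independent. In macrophage/microglia-like cells moderate against sham gave a log2 fold change of -1.09 ± 0.47 (adjusted p = 0.197, edgeR). Moderate was not tested against mild or severe there, nor against any single group in oligodendrocyte-like and precursor-like cells.

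Moderate replicate 2 had the highest macrophage/microglia-like level among all 8 libraries of Sqstm1 (342 CPM), Nbr1 (32.8 CPM), Optn (27.8 CPM), Tecpr1 (28.4 CPM) and Rb1cc1 (81.4 CPM). It also had the highest share of blood-derived-scoring cells (65.4%), and in the microglia-scoring cells alone its Sqstm1 was 347 CPM against 69.3 to 186 CPM in the other injured libraries. The part of either in these values was not tested.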
